A study of Mus musculus with 7 samples.

Results

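Primary granules, also called azurophil granules, are the first storage granules that a neutrophil precursor makes, and Mpo, Elane, Prtn3 and Ctsg encode their best known enzymes. The 4 genes were taken by their symbols, with earlier results of these data known. Each was read by 1 probe set annotated to its symbol alone (Entrez Gene 17523 for Mpo, 50701 for Elane, 19152 for Prtn3 and 13035 for Ctsg), which makes 4 of the 12393 genes that could be read in this way. They were followed on 7 single-colour arrays of mouse fetal liver cells: the feeder cell layer grown from fetal liver (1 array), unsorted liver endothelial progenitors (1 array), and progenitors sorted as positive (Sca1+, 2 arrays) or negative (Sca1-, 3 arrays) for the surface antigen Sca1. The labels used here give no strain, age, allele or treatment for any group, and do not say whether the arrays of a group came from separate cultures or animals, so the spread between them may be technical. The feeder array lies in a table of its own under a different array platform, so comparisons with it also cross platforms. In total RNA of mixed cells, fewer cells of a type and less RNA per cell cannot be told apart.

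Myeloperoxidase, the product of Mpo, is the haem enzyme that turns hydrogen peroxide and chloride into hypochlorous acid. Neutrophil elastase (Elane), proteinase 3 (Prtn3) and cathepsin G (Ctsg) are serine proteases that are made as inactive precursors, trimmed by the dipeptidase cathepsin C, and stored with the proteoglycan serglycin. Transcription of all of these genes peaks in promyelocytes and is shut down as cells pass to the myelocyte stage, when the genes of secondary granules come on, so their RNA is used as a marker of promyelocytes while the proteins persist in mature neutrophils. In the mouse, Elane and Prtn3 are adjacent on chromosome 10, Mpo lies beside another peroxidase gene, Lpo, on chromosome 11, and Ctsg lies in a cluster of granzyme and mast cell protease genes on chromosome 14.

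The promoters are shown because Mpo, Prtn3 and Ctsg varied together over the arrays, Elane less closely, and PU.1, C/EBP, Myb and Runx factors are known regulators of primary granule genes. The 250 bases before each gene's start, from RefSeq on GRCm38.p6, lie at chr11:87793534-87793783 on the plus strand for Mpo, chr10:79886062-79886311 on the plus strand for Elane, chr10:79879417-79879666 on the plus strand for Prtn3 and chr14:56102575-56102824 on the minus strand for Ctsg, and all 4 genes were matched by symbol. Capitals mark every match, on either strand, to GAGGAA (the core bound by PU.1 and other ETS factors), AACNG (Myb), TGTGGT (Runx) or TTGCNNAA (C/EBP).
Mpo: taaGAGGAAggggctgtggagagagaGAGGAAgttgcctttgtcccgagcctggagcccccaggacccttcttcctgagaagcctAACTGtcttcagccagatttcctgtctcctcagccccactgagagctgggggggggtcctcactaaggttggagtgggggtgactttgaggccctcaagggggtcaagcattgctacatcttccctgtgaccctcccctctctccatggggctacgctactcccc
Elane: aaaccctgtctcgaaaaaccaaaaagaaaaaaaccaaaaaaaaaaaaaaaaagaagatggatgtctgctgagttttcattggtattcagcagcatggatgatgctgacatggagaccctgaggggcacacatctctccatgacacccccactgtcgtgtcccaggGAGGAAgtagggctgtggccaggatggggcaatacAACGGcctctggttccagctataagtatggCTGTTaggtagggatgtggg
Prtn3: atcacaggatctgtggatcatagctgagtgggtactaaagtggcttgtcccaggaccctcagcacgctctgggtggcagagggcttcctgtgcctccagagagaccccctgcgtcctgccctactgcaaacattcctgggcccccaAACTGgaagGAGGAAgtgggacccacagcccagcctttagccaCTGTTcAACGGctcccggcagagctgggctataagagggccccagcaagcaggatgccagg
Ctsg: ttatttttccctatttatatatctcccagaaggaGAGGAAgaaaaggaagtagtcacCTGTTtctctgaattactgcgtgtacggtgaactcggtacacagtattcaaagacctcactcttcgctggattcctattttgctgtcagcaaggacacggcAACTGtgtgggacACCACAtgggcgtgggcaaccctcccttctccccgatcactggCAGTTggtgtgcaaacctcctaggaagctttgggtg
GAGGAA was present in all 4 windows and in 23.3% of 32851 promoter windows of the same length. In Prtn3 and Elane it began 95 and 85 bases before the start. AACNG was also present in all 4, but 74.2% of all windows hold it. TGTGGT was present only in Ctsg among the 4 (14% of all windows), and TTGCNNAA was in none of the 4 windows (9.56% of all windows). No match overlapped a match to another motif. A match describes these letters only.

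Signals are linear and were brought to a common trimmed mean of 500, and log2 differences were taken after values under 64 had been raised to 64. Bacterial control probe sets, used as background readings, had a highest signal of 50.8 to 170, depending on the array. The 3' to 5' ratio of the Actb control probe sets was 1.03 on the feeder array, 1.01 on the unsorted array, 6.83 and 2.37 in Sca1+ and 13.5, 1.87 and 1.91 in Sca1-. Titles of Sca1+ replicate 2 and Sca1- replicates 2 and 3 carry a sample number and those of the other arrays do not. These 2 title sets stood apart among the sorted arrays: the summed signal of 14 fibroblast and mesenchymal genes was 12921 (Sca1+) and 15925 (Sca1-) in the unnumbered set and 124260 (Sca1+), 54272 and 49045 (Sca1-) in the numbered set. Of 18 endothelial genes, the defining markers of the labelled cells, 7 exceeded a signal of 100 on the feeder array, 13 on the unsorted array, 5 and 12 in Sca1+ and 8, 7 and 7 in Sca1-, and 0 were deposited at a value of 0. Of 13 macrophage and Kupffer cell genes, 10 to 12 exceeded it on each of the 7 arrays. Their summed signal was 61371 on the feeder array, 61919 on the unsorted array, 121020 and 87305 in Sca1+ and 59901, 71059 and 64852 in Sca1-, so it was higher in Sca1+, opposite to the 4 genes. The median difference of the 12 tested was 0.70, with 0 called in either fit, and the part of these cells in the results was not tested.

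The lowest Sca1- array exceeded the higher Sca1+ array for all 4 primary granule transcripts, and their level differed more between the 2 Sca1+ arrays than among the Sca1- arrays, except for Elane. The comparison asks which transcripts differ between the fractions. Mpo read 6101 and 167 in Sca1+, against 19588, 14278 and 13593 in Sca1-. Prtn3 read 4652 and 180 in Sca1+, against 11344, 8016 and 8020 in Sca1-. In both genes Sca1+ replicate 1 stood within 3.21-fold of the Sca1- array of its title set, and Sca1+ replicate 2 stood far below all others of the sorted arrays. Ctsg read 939 and 22.2 in Sca1+, against 2459, 1252 and 1226 in Sca1-, and followed the same order. Elane read 86.6 and 29.2 in Sca1+, against 225, 1549 and 1371 in Sca1-. It was low on both Sca1+ arrays and also, unlike the other 3 genes, far lower on Sca1- replicate 1 than on Sca1- replicates 2 and 3. Both groups were therefore separated for all 4 genes, a separation in this direction that 8.45% of the 8591 tested genes had. For Elane the separation rested on 225 on Sca1- replicate 1 against 86.6 on Sca1+ replicate 1. The highest background control of that Sca1- array was 169.9, below the 225 and above the 86.6. On Sca1+ replicate 1 the highest background control was 55.2, below the 86.6. Elane met the minimum signal for testing on Sca1- arrays only.

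**Figure D1:**
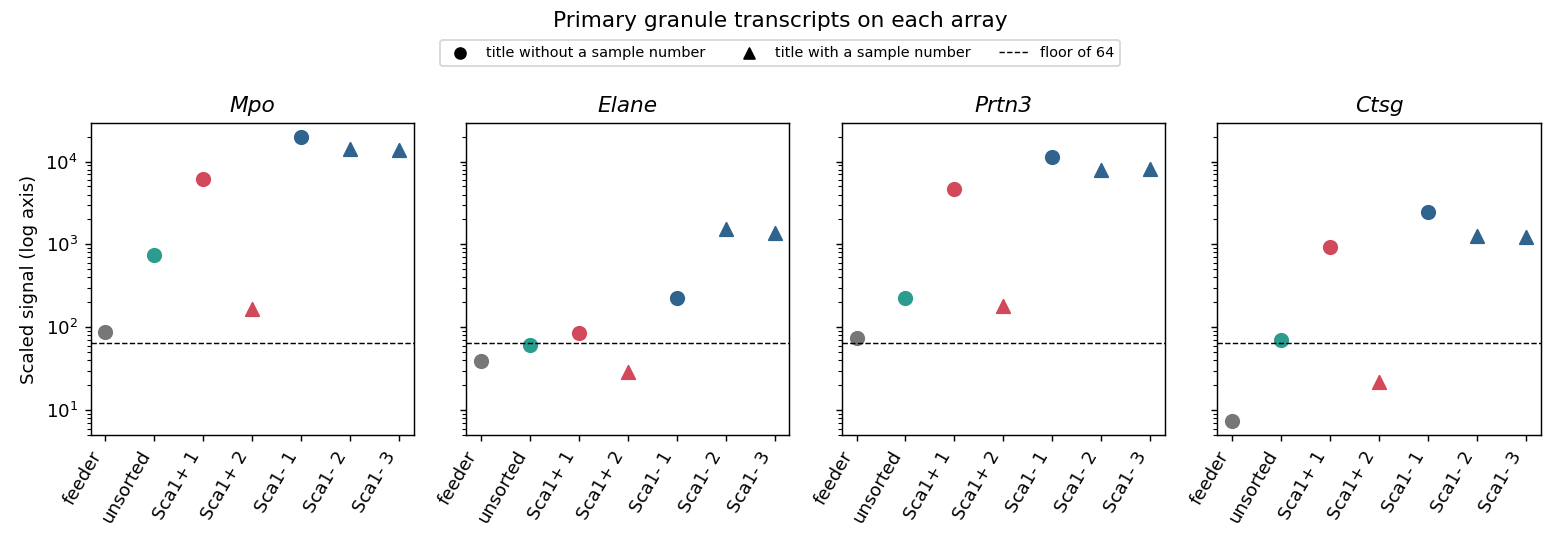
Signal of Mpo, Elane, Prtn3 and Ctsg on each of the 7 arrays (log axis, scaled to a trimmed mean of 500), 1 point per array; circles are arrays whose titles carry no sample number, triangles those that carry one, and the dashed line is the floor of 64. The Sca1- points lie highest in every panel, Sca1+ replicate 2 lies at 180 or below, and Elane on Sca1- replicate 1 lies at 225.

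On the log2 scale the mean signal of Mpo was 9.98 ± 3.67 in Sca1+ (SD, n = 2) and 13.93 ± 0.29 in Sca1- (SD, n = 3), and the limma difference of Sca1+ minus Sca1- was -3.95 ± 1.32 (SE). The means were 6.22 ± 0.31 in Sca1+ and 9.61 ± 1.56 in Sca1- for Elane, 9.84 ± 3.32 in Sca1+ and 13.14 ± 0.29 in Sca1- for Prtn3, and 7.94 ± 2.74 in Sca1+ and 10.61 ± 0.57 in Sca1- for Ctsg. The difference was -3.39 ± 0.86 for Elane, -3.30 ± 1.21 for Prtn3 and -2.67 ± 1.05 for Ctsg. With no block none of the 4 passed: the adjusted p of limma was 0.9995 for each, while the unadjusted p was 0.0204 for Mpo, 0.00567 for Elane, 0.0293 for Prtn3 and 0.0392 for Ctsg. Over all 8591 genes 0 passed in that fit (0% lower and 0% higher in Sca1+), while 2.29% were lower and 1.11% higher with an unadjusted p under 0.05, and all 4 genes were among the lower ones. Elane entered the tests through its Sca1- arrays alone, so its p-values in all fits are a description. Sca1+ replicate 2 set much of the size: without it the differences were -1.36 for Mpo, -0.95 for Prtn3, -0.73 for Ctsg and -3.17 for Elane, and without Sca1+ replicate 1 they were -6.54, -5.64, -4.60 and -3.61. For single genes the exact permutation test over the 5 sorted arrays, two-sided, gave p = 0.1 for Mpo, Prtn3 and Ctsg, the smallest it can give, and p = 0.2 for Elane. With the title set as a block the differences were -4.37 ± 0.95 for Mpo (adjusted p = 0.141), -3.17 ± 0.69 for Elane (adjusted p = 0.141), -3.68 ± 0.85 for Prtn3 (adjusted p = 0.169) and -3.04 ± 0.62 for Ctsg (adjusted p = 0.126). None of the 4 was among the 85 genes (0.989%) that passed lower in Sca1+ in that fit, and all 4 were among the 7.82% lower with an unadjusted p under 0.05.

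Differences were larger in the numbered title set. Within the unnumbered set, with 1 array of each fraction, Mpo was 3.21-fold, Ctsg 2.62-fold, Elane 2.60-fold and Prtn3 2.44-fold lower in Sca1+; they ranked 402 (Mpo), 652 (Ctsg), 668 (Elane) and 791 (Prtn3) from the lowest of the 8591 genes. Within the numbered set, with 1 Sca1+ array and 2 Sca1- arrays, Mpo was 83.3-fold and Prtn3 44.5-fold lower in Sca1+, and Elane and Ctsg, which were at the floor on the Sca1+ array, were at least 22.8-fold and at least 19.4-fold lower. The highest background control on that Sca1+ array was 82.0, above the floor of 64 from which these bounds were counted. In that set Mpo ranked 2 and Prtn3 8 from the lowest of all tested genes. The change between the sets, unnumbered minus numbered, was 4.70 ± 0.12 for Mpo and 4.19 ± 0.10 for Prtn3 on the log2 scale (SE). For Elane and Ctsg the fitted 3.13 and 2.89 depend on the floor, and with a floor of 16 they were 4.26 and 4.41. The change did not pass (limma interaction, adjusted p = 0.101 for each gene) and 0% of all genes passed, while 31.4% had an unadjusted p under 0.05, all 4 genes among them. All 4 passed under 3 of the 10 alternatives, and its residual spread comes from 1 pair of arrays, Sca1- replicates 2 and 3. Among the sorted arrays the fibroblast signal and the 3' to 5' ratio also differed between the sets, and their part in the result was not tested. The unsorted and feeder arrays, whose titles are unnumbered too, had fibroblast sums of 82512 and 107360.

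**Figure D2:**
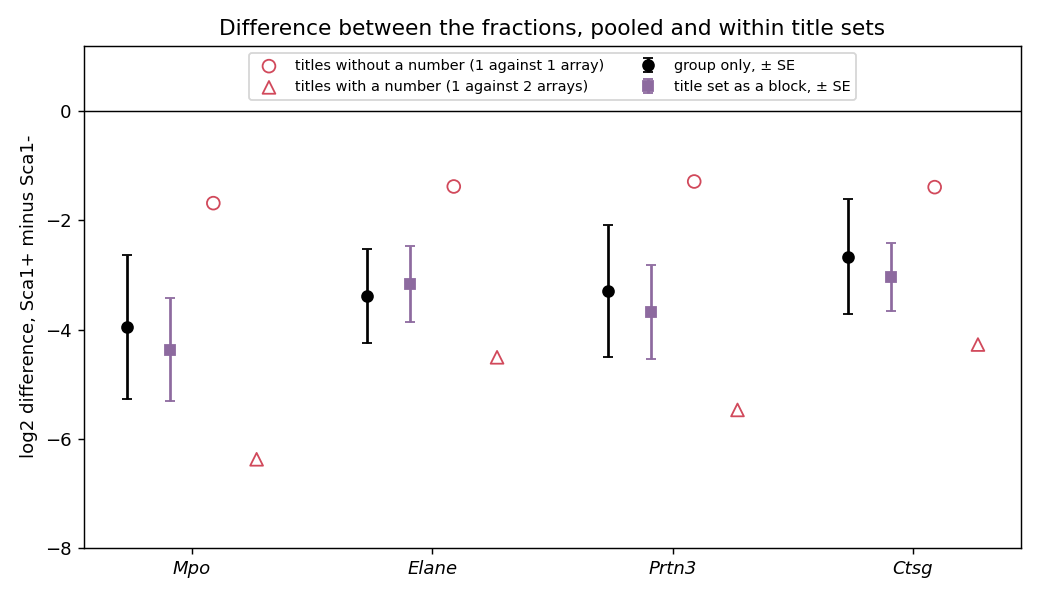
Log2 difference of Sca1+ minus Sca1- for each gene: the fit with group only and the fit with the title set as a block (filled symbols, bars are ± SE), and the difference within each title set (open symbols, no replicate error). All symbols lie below 0, and the numbered set lies between -6.38 and -4.28, where Elane and Ctsg are bounds set by the floor, while the unnumbered set lies between -1.68 and -1.29.

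Among the sorted arrays Elane departed from the other 3 genes. Sca1- replicate 1 was above the mean of Sca1- replicates 2 and 3 by a log2 difference of 0.49 in Mpo, 0.50 in Prtn3 and 0.99 in Ctsg, and the difference was -2.70 in Elane. At least 2-fold lower values on that array were found for 21.7% of all genes tested. The same array had the highest 3' to 5' ratio of Actb, 13.5, and the part of that ratio in the Elane signal was not tested. Over the 6 arrays of the larger table, Pearson's r of log2 signals was 0.996 between Prtn3 and Ctsg, 0.98 between Mpo and Prtn3 and 0.97 between Mpo and Ctsg, and 0.72, 0.72 and 0.66 between Elane and Mpo, Prtn3 and Ctsg. These 6 arrays share title sets and fractions, so the values are a description.

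Genes for the activation and storage of the primary granule enzymes gave no call in either fit. Ctsc, which encodes the activating dipeptidase cathepsin C, read 29846 and 14666 in Sca1+, against 12275, 16619 and 14755 in Sca1-, with a limma difference of 0.54 ± 0.45 that did not pass (adjusted p = 0.9995). The fractions overlapped for Ctsc. Srgn, which encodes serglycin, read 6068 and 2320 in Sca1+, against 10415, 5391 and 5264 in Sca1-, and also overlapped. Of the 6 tested genes of granule packaging and storage, 0 were lower and 0 higher with an unadjusted p under 0.05, and their median difference was 0.00 beside 0.07 over all genes tested.

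The inhibitors were split. Serpinb1a, which encodes a cytosolic inhibitor of elastase, proteinase 3 and cathepsin G, read 1340 and 14.994 in Sca1+, against 7459, 1371 and 1437 in Sca1-. Its difference was -3.06 ± 1.32 with group only (adjusted p = 0.9995), and it was lower in Sca1+ with the title set as a block at -3.61 ± 0.45 (adjusted p = 0.0315). Slpi, which encodes a secreted inhibitor of elastase and cathepsin G, read 601 and 299 in Sca1+, against 5010, 1120 and 760 in Sca1-, with a difference of -1.93 ± 0.82 (adjusted p = 0.9995, and 0.0801 with the block). Both inhibitors were separated between the fractions, as were 8.45% of all genes tested, Serpinb1a by only 1340 against 1371, and Sca1- replicate 1 was highest in both. Serpinb6a (0.74 ± 0.47) and Serpinb6b (0.60 ± 0.89) did not pass in either fit. Nor did Serping1 (0.00 ± 0.61), which stood on the same list but encodes the complement C1 inhibitor. In all, 5 of the 9 measured genes of this list could be tested, 0 passed with group only and 1 passed with the block. Over all genes tested, 0.989% passed lower with the block.

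Of the transcription factors that regulate primary granule genes, 10 of the 11 measured could be tested, and 0 passed in either fit. With an unadjusted p under 0.05, 2 were lower in Sca1+, beside 2.29% of all genes tested. These 2 were Myb (-1.88 ± 0.68, unadjusted p = 0.0282 in limma) and Gfi1 (-1.38 ± 0.54, unadjusted p = 0.0376 in limma), which encode a progenitor activator and a repressor needed for neutrophil maturation. Myb read 232 and 76.6 in Sca1+, against 258, 601 and 757 in Sca1-, so Sca1+ replicate 1 lay close to Sca1- replicate 1. Cebpa, which encodes the C/EBP factor that starts granulocyte commitment, read 133 and 3451 in Sca1+, against 261, 3002 and 2907 in Sca1-. It was low on the unnumbered array of each fraction, while the unsorted and feeder arrays read 3091 and 2938, and its difference was -0.96 in the group fit and -0.29 with the block. Spi1, which encodes PU.1, read 931 and 3168 in Sca1+, against 2044, 4095 and 4397 in Sca1-, and its fractions overlapped. Irf8, which favours monocytes over granulocytes, had a difference of 0.71 ± 0.51, and Runx1 one of -0.87 ± 0.45, and neither passed.

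Other genes of the promyelocyte and of the primary granule were mixed. Of all genes tested, 2.29% were lower in Sca1+ with an unadjusted p under 0.05 and group only. With the title set as a block, 0.989% passed lower. Of 9 tested promyelocyte markers outside the 4 genes, 2 had an unadjusted p under 0.05, both lower in Sca1+, and 2 passed lower with the title set as a block. Only 5 of the 9 had a difference below 0. The median difference was -0.28, with 0.47 in the unnumbered set and -0.92 in the numbered set. The summed signal of the 10 measured markers was 58080 and 31884 in Sca1+, against 37247, 41295 and 39046 in Sca1-, so the fractions overlapped. Ms4a3, a membrane protein gene expressed in granulocyte and monocyte progenitors, read 693 and 132 in Sca1+, against 2370, 1173 and 1091 in Sca1-, a difference of -2.26 ± 0.75 (adjusted p = 0.9995, and 0.0419 with the block). Igsf6 was lower with the block at -1.39 ± 0.21 (adjusted p = 0.0482), and not with group only. Of 8 tested genes listed as other primary granule proteins, 1 was lower with an unadjusted p under 0.05, Chil1 (-3.70 ± 1.51), and it passed lower with the block (-4.36 ± 0.22, adjusted p = 0.00437). Chil1 read 25718 on Sca1- replicate 1 and 1627.5 and 1575.7 on replicates 2 and 3. Sca1- replicate 1 was at least 2-fold above the mean of replicates 2 and 3 in 4 of the 8 genes of this list. The same held for 13 of the 16 secondary and tertiary granule genes and for 15.6% of all genes tested. Whether Chil1 belongs on this list was not tested. The lysozyme genes Lyz1 and Lyz2, near-identical copies whose probe sets may read both, had differences of -0.43 and -0.46 that did not pass. Alas1, which encodes the first enzyme of haem synthesis, was the only 1 of 7 tested genes of haem supply and peroxidases with an unadjusted p under 0.05 (-1.02 ± 0.38). By comparison, of 16 secondary and tertiary granule genes, 11 had an unadjusted p under 0.05, all lower in Sca1+, and 12 passed lower with the title set as a block, and the median of their 16 differences was -3.002 in the group fit, beside -3.34 for the 4 primary granule genes. Of 11 mature neutrophil genes 2 had an unadjusted p under 0.05 and 4 passed with the block, all lower in Sca1+.

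None of the tested genes next to the 4 on the chromosome, by order in the GRCm38.p6 table, passed in either fit. Around Ctsg, 9 of the 10 nearest protein-coding genes had a probe set of their own, and none passed the filter on low signal: the highest signal among them on any array was 182, for the mast cell protease gene Mcpt2 on Sca1- replicate 1. Outside these 10, a wider list of Ctsg neighbours held 2 tested genes, Gzmc and Gzmb, and neither passed in either fit. Gzmc read 649 and 41.2 in Sca1+, against 910, 238 and 253 in Sca1-. Gzmb read 456 and 69.6 in Sca1+, against 394, 57.2 and 88.6 in Sca1-. Around Mpo, the eosinophil peroxidase gene Epx reached at most 52.8 and Lpo at most 53.4 on the 7 arrays. Around Prtn3 and Elane, Med16 and Kiss1r had differences of -0.38 ± 0.61 and -0.68 ± 0.85 that did not pass, and Ptbp1 read 387 and 2884 in Sca1+, against 144, 3003 and 3128 in Sca1-, a difference of -0.07 ± 1.47. Palm (-1.75 ± 0.57) and Arid3a (-1.44 ± 0.52) had unadjusted p of 0.0177 and 0.0280 in limma and did not pass after adjustment. Mast cell and basophil markers, which bear on Ctsg because mast cells can express it, had a summed signal over 12 genes of 678 on the feeder array, 1383 on the unsorted array, 1172 and 724 in Sca1+ and 5612, 977 and 1223 in Sca1-. Of these 12 genes, 1 exceeded a signal of 100 on the feeder array, 5 on the unsorted array, 3 and 3 in Sca1+ and 7, 2 and 3 in Sca1-. Hdc, a histamine synthesis gene that neutrophils also express, gave 4495 of the 5612. Of the other listed genes, Mcpt4, Ms4a2 and Fcer1a were under the floor of 64 on all 7 arrays, and others were not. Cma1 read 165 on Sca1- replicate 1 and 167 on the unsorted array. Cpa3 read 119 on Sca1+ replicate 1, and Gata2 read 416 on the unsorted array. All of these but Hdc were named after their values were seen. The part of these cells in the Ctsg signal was not tested.

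The genes whose pattern was most like that of the 4 included a proliferation gene, a promyelocyte marker and Hp, from the secondary granule list. Likeness was Pearson's r with the mean log2 signal of the 4 genes over 6 arrays, among 1064 tested genes whose SD was at least 1. Mki67, which encodes the proliferation antigen Ki-67, had r = 0.99, with signals of 846 on the unsorted array, 2215 and 877 in Sca1+ and 3911, 3352 and 3826 in Sca1-. Hmgb2 and Nup210 followed with r = 0.95 each, then Ms4a3 (0.95), Ripor2 (0.94), Hp (0.93), Wfdc21 (0.92) and Stfa3 (0.92). The amplitude differed: the difference between the fractions was -1.40 ± 0.48 for Mki67 and -3.97 ± 1.14 for Wfdc21. These 8 genes were chosen for their likeness to genes that are low in Sca1+, so their own differences are a description. Of 12 tested G2 and M phase genes, a list that holds Mki67, all 12 had a difference below 0. Of these, 6 were lower with an unadjusted p under 0.05 in limma, beside 2.29% of all genes, and 0 passed in either fit. Elane taken alone was most like Ccnf (r = 0.98), a cyclin gene, and Ctsg taken alone most like Prtn3.

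**Figure D3:**
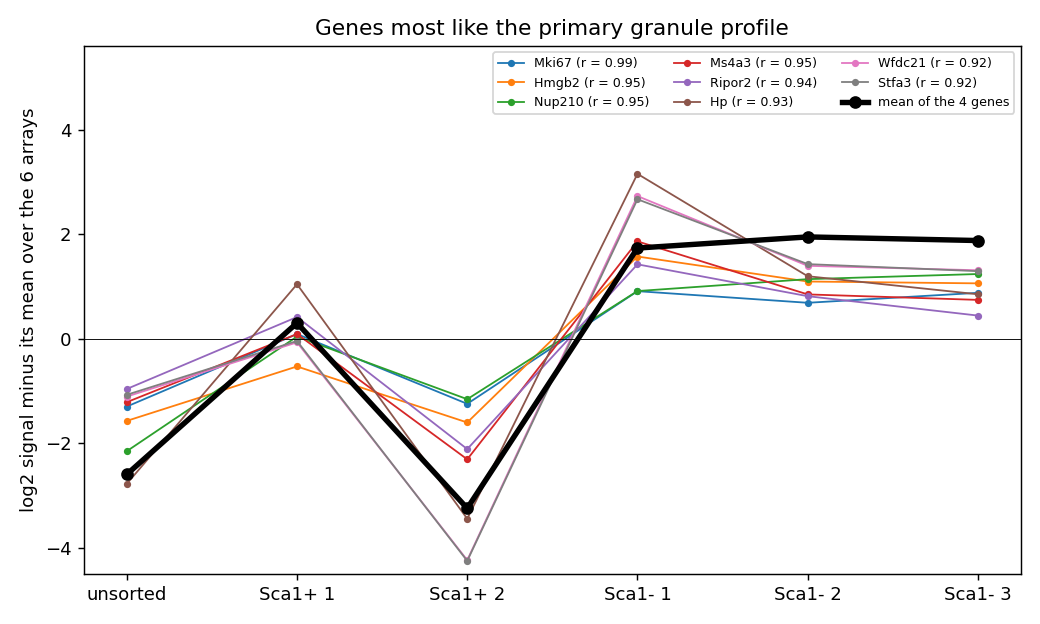
Log2 signal minus its mean over 6 arrays for the 8 genes of most similar pattern (thin lines) and for the mean of Mpo, Elane, Prtn3 and Ctsg (thick black line), with Pearson's r over these 6 arrays in the legend. The thick line lies lowest on Sca1+ replicate 2 and the unsorted array and highest on the 3 Sca1- arrays, where Hp, Wfdc21 and Stfa3 peak on Sca1- replicate 1.

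On the unsorted array all 4 transcripts were low. Mpo had a signal of 751, Prtn3 of 223, Ctsg of 69.8 and Elane of 60.8, and Ctsg and Elane lay below the highest background control of that array, 170. Each of the 4 lay below all 3 Sca1- arrays. Mpo and Prtn3 lay between the 2 Sca1+ arrays, Prtn3 by only 223 against 180 on Sca1+ replicate 2. For Elane and Ctsg no order against Sca1+ replicate 2 can be read, since they were at the floor there. Against the mean of both fractions, the log2 difference of the unsorted array was -3.69 for Prtn3 and -2.40 for Mpo. The computed values of -3.15 for Ctsg and -1.91 for Elane rest on unsorted signals below that control. With these values all 4 were at least 2-fold lower, where 8.36% of genes were, and with 1 unsorted array no test was made. Against the Sca1- mean alone, a contrast added after the values were seen, Prtn3 was 40.4-fold and Mpo 20.8-fold lower on the unsorted array. Prtn3 ranked 1 and Mpo 4 from the lowest of 8591 genes, and 0.326% of genes were at least 8-fold lower.

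The feeder array had the lowest signal of the 7 for Mpo and Prtn3. Mpo had a signal of 88.6 on the feeder array, against 751 on the unsorted array. Prtn3 had 74.6 on the feeder array, against 223 on the unsorted array. Ctsg was at 7.40 and Elane at 39.4 on the feeder array, both under the floor, against 69.8 and 60.8 on the unsorted array, so for these 2 genes no order between the arrays can be read. The highest background control of the feeder array was 60.8, close below its Mpo and Prtn3 signals. The log2 difference of feeder minus unsorted was -3.08 for Mpo and -1.58 for Prtn3, and at least 2-fold lower feeder values were found for 9.6% of genes. Relative to the mean of both sorted fractions the differences were -5.49 for Mpo and -5.27 for Prtn3, and 8.22% of genes were at least 2-fold lower there. The computed -3.27 for Ctsg and -1.91 for Elane depend on the floor, which both genes met on the feeder array and on Sca1+ replicate 2. With a floor of 16 they were -4.89 and -2.33. Mpo and Prtn3 signals fell from the Sca1- arrays through Sca1+ replicate 1, the unsorted array and Sca1+ replicate 2 to the feeder array. For Prtn3 the unsorted array and Sca1+ replicate 2 were close, at 223 and 180, so their order is uncertain.

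Primary and secondary granule transcripts, which belong to successive stages of the same lineage, overlapped in range in both contrasts that follow. In each, 1 of the 4 primary granule genes lay below all 16 secondary and tertiary granule genes. Relative to the Sca1- mean, the unsorted array differed by -5.34 to -3.61 in the 4 primary granule genes (median -4.43), of which Elane and Ctsg were below the background control on the unsorted array, while in 16 secondary and tertiary granule genes the difference ran from -4.51 to 1.01 (median -2.08), and the median of all genes was 0.21. Of the 16 genes, 1 lay below the median of the 4, Hp, which encodes haptoglobin and was named after its value was seen. Sca1- replicate 1 was at least 2-fold above the mean of Sca1- replicates 2 and 3 in 13 of the 16 secondary and tertiary granule genes, where 15.6% of all genes were. The count of 0 of the 4 primary granule genes is near that share, and Ctsg lay just under the cut with a log2 difference of 0.99. The same array had the highest 3' to 5' ratio of Actb, 13.5, and the part of that ratio was not tested. Cd177, which encodes a neutrophil surface glycoprotein, read 5587 on Sca1- replicate 1 and 883 and 878 on replicates 2 and 3. The summed signal of 11 mature neutrophil genes was likewise 129750 on Sca1- replicate 1 and 29636 and 29495 on the other Sca1- arrays. These are single arrays on 1 side of each contrast, so no test was made of the difference between the gene classes.

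**Figure D4:**
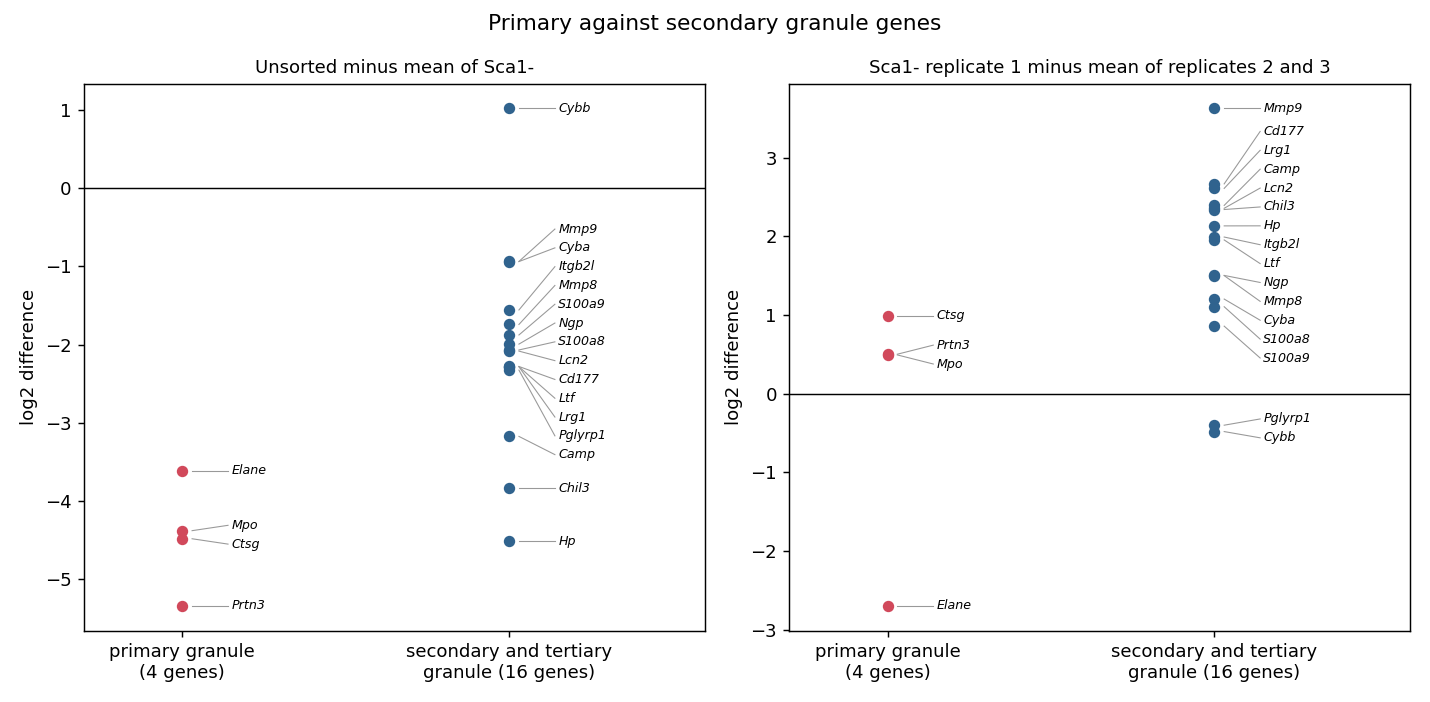
Log2 difference for each of the 4 primary granule genes (left column of each panel) and 16 secondary and tertiary granule genes (right column), as unsorted minus the Sca1- mean (left panel) and as Sca1- replicate 1 minus the mean of replicates 2 and 3 (right panel), 1 point per gene. Primary granule genes lie between -5.34 and -3.61 in the left panel, where Elane and Ctsg rest on signals below background, and at or below 0.99 in the right panel, where 13 of the 16 other genes lie above 1.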

How the data were processed

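Values were signal intensity per probe set, as deposited by the authors on a linear scale, with array trimmed means of about 250. GCOS is named for 3 arrays, per the submitters' processing notes, with no version; for the other 4 arrays no tool is named in the sources used. Here a 2% trimmed mean of 500 was set on every array, followed by a floor of 64 and log2. Of 22690 probe sets, 64 controls, 691 with several genes and 1555 with none were left out. For each gene the probe set of highest mean log2 signal was kept, and 8591 genes entered the tests, those whose signal passed 100 in 2 or more sorted samples.

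Sca1+ was compared with Sca1- by limma 3.58.1 in R 4.3.3 (eBayes with an intensity trend, 6 arrays, Benjamini-Hochberg at 0.05), with group as the only term and 3 residual degrees of freedom. The title set as a block left 2, and an interaction of fraction and title set, over the 5 sorted arrays, left 1. The script was tested on simulated data. Comparisons with 1 array were described only. The number of arrays limits the precision.

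By rule, names were open to the 4 genes, every measured regulator, activator, inhibitor or neighbour, up to 4 members of smallest p of each other list, and the 8 genes of most similar pattern. The 4 genes and all lists were chosen with earlier results of these data known. One symbol, Tmem173, was updated to Sting1. Figures were drawn with matplotlib 3.10.9.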

Additional observations from a re-analysis of the deposited data

How the results depend on the processing

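The 4 genes stayed lower in Sca1+ under all 18 alternatives to the group fit, and passed in 1 of them, the replicate block. There the differences were -4.05 for Mpo (adjusted p = 0.00511), -2.99 for Elane (0.0293), -3.38 for Prtn3 (0.0134) and -2.84 for Ctsg (0.0209). The labels do not say that a number marks a shared culture or day; over genes, replicate 1 minus replicate 2 correlated at r = 0.55 between the fractions in 2 pairs, and this block leaves 1 residual degree of freedom. Leaving out 1 sorted array moved the difference between -6.54 and -1.36 for Mpo, -4.29 and -2.90 for Elane, -5.64 and -0.95 for Prtn3 and -4.60 and -0.73 for Ctsg. The lowest sizes came without Sca1+ replicate 2, except for Elane. Genes called lower in Sca1+ numbered 0 with group only, 85 with the title set as a block and 80 with the replicate block, and 1 gene was called higher with no filter. Without any 1 sorted array the group fit called 0. With the title set as a block, the number of genes called lower was 0 with a floor raised above 64 or no filter and up to 855 without Sca1+ replicate 2, where 1263 were called higher. In that blocked fit the 4 genes passed without Sca1+ replicate 1 or 2 or Sca1- replicate 1 or 2, and Mpo passed without Sca1- replicate 3, with 1 residual degree of freedom. Without either Sca1+ replicate the Sca1+ arm is 1 array, which is assumed to vary like the other groups; the cause was not tested.

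The alternatives for the change between title sets were chosen after seeing the data. It passed with a floor of 16 (Mpo 4.70, Elane 4.26, Prtn3 4.19, Ctsg 4.41), a pseudocount of 32 (4.45, 3.49, 3.96, 3.19) and signal above 300 (4.70, 3.13, 4.19, 2.89), and, for all but Elane, with the raised floor (Mpo 4.70, Prtn3 4.19, Ctsg 1.89) and no filter (4.70, 4.19, 2.89). It could not be fitted without any 1 sorted array. For feeder minus unsorted, Ctsg was -2.12 with a floor of 16, below any background control. Median scaling moved the median of all genes for unsorted minus sorted to -0.51, for feeder minus unsorted to 0.28 and for feeder minus sorted to -0.33, and quantile normalization moved the first and the third to -0.10 and -0.15. Mpo and Prtn3 kept values below these, and so did Elane and Ctsg for unsorted minus sorted and feeder minus sorted. For feeder minus unsorted with median scaling, Elane and Ctsg were 0 because both arrays were at the floor, so no order can be read. Elane and Ctsg are limited by background on the feeder, unsorted and Sca1+ replicate 2 arrays.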
